A study of Caenorhabditis elegans with 2 samples.

Results

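Candidate peaks of the transcription factor LAG-1 at tRNA genes were examined in young adult Caenorhabditis elegans. An entry of the deposited replicate ranking was taken where its summit lay inside a nuclear tRNA gene or within 500 bp of one, whatever its reproducibility. There were 878 such entries among 125458 on the ce11 assembly, or 0.700% of the ranking. The worms were of strain RW12314, in which the lag-1 gene on chromosome IV carries a TY1, EGFP and 3xFLAG insertion made by CRISPR at its own locus. They were synchronised by bleaching and starvation as L1 larvae and collected whole at 62 hours. Sonicated chromatin from 2 biological replicates, the only group of the series, was precipitated with an antibody to GFP. All cells of the animal were pooled, so a site bound in few cells and a site bound weakly in many cells cannot be told apart.

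LAG-1 is the worm's CSL protein, the DNA-binding factor through which the Notch receptors LIN-12 and GLP-1 act on their target genes. Transfer RNA genes are short, are transcribed by RNA polymerase III and carry their promoter inside the transcribed sequence, as an A box and a B box bound by the factor TFIIIC. Transcription ends at a run of T just past the gene. In C. elegans these genes are scattered, many lie in introns of protein-coding genes, and X carries a large share of them.

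The sequences below show what lies under strong candidates with the summit inside the tRNA gene or less than 20 bp from it, and under a weak candidate at an identical gene copy. Each runs from 40 bp before the tRNA gene to 20 bp after it, on the gene's own strand, and was read from NCBI's WBcel235 (the ce11 genome). Capitals mark, in this order where present, the A box word TNGCNNAGT, the B box core GTTCGANNC, and the run of T that follows the gene. The first gene codes for tRNA-Ala and lies in an intron of him-4, at chrX:9743549-9743680 with its margins (plus strand).
F15G9.t1: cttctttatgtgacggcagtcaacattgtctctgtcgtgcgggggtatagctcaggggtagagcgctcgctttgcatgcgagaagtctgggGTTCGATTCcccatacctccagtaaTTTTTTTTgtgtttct
The next is the only tRNA-Leu gene of its sequence, between genes at chrX:13665515-13665693 (plus strand).
C04A11.t1: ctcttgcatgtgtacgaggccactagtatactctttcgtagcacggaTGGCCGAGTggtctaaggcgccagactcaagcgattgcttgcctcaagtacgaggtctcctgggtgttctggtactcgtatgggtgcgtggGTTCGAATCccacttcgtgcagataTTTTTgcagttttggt
A tRNA-Ile gene whose sequence no other annotated tRNA gene shares lies between genes at chrV:12002136-12002280 (plus strand).
F57F5.t1: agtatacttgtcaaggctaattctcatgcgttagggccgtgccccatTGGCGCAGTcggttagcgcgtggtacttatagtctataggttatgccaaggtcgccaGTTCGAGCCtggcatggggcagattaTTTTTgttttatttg
A tRNA-Cys gene whose sequence no other annotated tRNA gene shares lies in an intron of T28C12.6 at chrV:6335358-6335489 (plus strand).
T28C12.t1: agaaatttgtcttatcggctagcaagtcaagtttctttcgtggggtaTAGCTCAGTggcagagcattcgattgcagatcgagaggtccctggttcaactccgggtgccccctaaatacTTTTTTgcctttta
A tRNA-Leu gene whose 9 identical copies all lie on X sits in an intron of tag-123 at chrX:8419394-8419535 (minus strand).
F08F1.t1: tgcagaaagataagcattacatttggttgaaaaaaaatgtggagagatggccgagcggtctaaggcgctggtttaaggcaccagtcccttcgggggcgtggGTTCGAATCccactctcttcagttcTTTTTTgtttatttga
The last pair are copies of a tRNA-Gln gene with 15 identical copies, at chrX:9091537-9091668 (minus strand, in an intron of ajm-1) and at chrX:12937661-12937792 (plus strand).
H08J11.t3: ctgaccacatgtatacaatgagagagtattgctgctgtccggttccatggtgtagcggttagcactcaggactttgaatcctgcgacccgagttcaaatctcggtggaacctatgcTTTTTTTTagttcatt
C05E7.t1: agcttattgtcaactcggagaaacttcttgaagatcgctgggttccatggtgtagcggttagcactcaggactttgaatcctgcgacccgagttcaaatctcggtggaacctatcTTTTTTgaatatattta
The candidate at H08J11.t3 had a signal of 78.8 and that at C05E7.t1 a signal of 5.15, although the 72 bp of the gene are the same. They are the highest and the lowest of the 9 copies with an entry within 100 bp, each entry credited to its nearest tRNA gene. Outside the gene, 8 of 40 upstream bases and 9 of 20 downstream bases matched by position, and the part of the flanks in the signal was not tested. Of the 612 nuclear tRNA genes annotated, 72.1% held the B box core, 35.8% the A box word and 98.9% a run of at least 4 T within 50 bp, on the gene's strand. The exact words matched no gene of some isotypes, with the B box core in 0 of 27 tRNA-Asp genes and the A box word in 0 of 41 tRNA-Glu genes. Variants of the words were not searched, so an unmarked gene is not shown to lack the box.

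The ranking is dense, so most places in the genome have an entry nearby, and entries were denser close to tRNA genes. The nuclear genome held 1.25 entries per kb, the 572 kb within 500 bp of a tRNA gene 1.53, and the 165 kb inside or within 100 bp of one 2.32. Of the 612 genes, 574 (93.8%) lay within 500 bp of at least 1 entry, a share to be read against that density, and 389 (63.6%) within 100 bp of one. On X, 190 of 276 genes (68.8%) had an entry within 100 bp, against 199 of 336 (59.2%) on the autosomes. The 878 entries formed 845 regions when overlapping ones were merged, and 127 entries lay within 500 bp of more than 1 tRNA gene. X held 382 entries and the autosomes 496. This share on X of 43.5% was close to the share of tRNA genes there, 45.1%, while 19.7% of all entries of the ranking were on X. Within 500 bp of tRNA genes there were 1.57 entries per kb on X, against 1.39 over all of X, and 1.51 on the autosomes, against 1.22 over all of them.

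Most candidates at tRNA genes were weak, and a small strong set stood among them. The deposited signal, the peak caller's strength of an entry in pooled reads over the control, had a median of 23.2 at tRNA genes (quartiles 15.5 and 33.4) and of 19.4 over all entries. Among the entries at tRNA genes, 55 (6.26%) were in the strongest 1% of the ranking and 215 (24.5%) in the strongest 10%. The irreproducible discovery rate (IDR), the authors' estimate of the share of false pairings between the replicates' ranked peaks, was at or under 0.01 for 22 of the 878 entries. That is 2.51% (95% Wilson interval 1.66% to 3.76%), against a background of 0.312% of all entries. At an IDR of 0.05, 65 entries (7.40%) passed, against 1.37%. With 1 group of 2 replicates no test between samples was possible, and entries of the same libraries are not replicates. The counts are therefore given beside those over all entries, and the intervals cover counting error only.

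Each replicate's value comes from the peak lists that were compared to make the ranking. In the first compared list, 504 of the 878 entries recurred with the same coordinates and signal in the ranking of replicate 1 and 0 in that of replicate 2. In the second compared list, 475 recurred in the ranking of replicate 2 and 0 in that of replicate 1. Values are given below as in the first and the second compared list. All 878 entries were 236 bp wide with the summit at the centre.

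The strongest candidate lay on X at chrX:3035985-3036220, between a pair of divergent tRNA genes, 56 bp upstream of M02F4.t2 (tRNA-Glu) and 61 bp from M02F4.t1 (tRNA-Gly). Its signal was 125.7, with 45.3 in the first compared list and 75.6 in the second. The candidate inside F15G9.t1 followed, in an intron of him-4, the gene for the extracellular matrix protein hemicentin. It had a signal of 112.4, with 60.6 and 48.5 in the compared lists, and was the only one found in both replicates' own thresholded lists. These were the only candidates at tRNA genes with a signal above 100.

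The strong set covered tRNA genes for 15 amino acids. C04A11.t1 (tRNA-Leu, X) had a signal of 90.8, with 37.6 and 51.4 in the compared lists. On chromosome V, F57F5.t1 (tRNA-Ile) had 87.9, with 41.0 and 46.6, the highest on an autosome. The candidates at the Leu and Ile genes were alike within 2-fold between the lists. No other annotated nuclear tRNA gene has the exact sequence of either gene, and the rest of the genome was not searched for it.
Another tRNA-Glu gene on X, annotated under the symbol rte-1, had a signal of 76.0 at 9 bp upstream (32.3 and 44.4). The tRNA-Gln gene H08J11.t3, inside ajm-1, which codes for an apical junction protein of epithelia, had 78.8 (36.0 and 47.6). T28C12.t1 (tRNA-Cys, V) had 72.3 (42.2 and 30.8). The first compared list was thus lower than the second at some of these genes and higher at others.

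Several of the other strong candidates lay in introns of named genes. F08F1.t1 (tRNA-Leu, in tag-123 on X) had a signal of 70.1. K04C2.t3 (tRNA-Lys) had 68.6 within brd-1 on chromosome III, the worm counterpart of BARD1, a partner of BRCA1. The tRNA-Trp gene sup-5, known for its amber suppressor alleles, had 63.2 (27.0 and 31.7) inside fli-1, the worm flightless gene. On X, C02D4.t1 (tRNA-Ile) had 56.0 inside ser-2, a tyramine receptor gene, and F41D9.t3 (tRNA-Asn) had 49.7 inside sulp-3, a gene of the sulfate permease family. Y70C5A.t1 (tRNA-Lys, V) had 62.7 inside Y70C5A.2. The candidate 414 bp from B0344.t3 (tRNA-Ile) had 56.9, near wrt-9, a hedgehog-related gene in which this tRNA gene lies.

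The rest of the 22 lay at tRNA genes between protein-coding genes. On X these were F12D9.t2 (tRNA-Glu, 64.8), Y59E1B.t2 (tRNA-Pro, 64.7), K02A4.t1 (tRNA-Ser, 63.4), C28G1.t3 (tRNA-Gly, 56.4), K09A11.t1 (tRNA-Tyr, 55.9) and F47E1.t1 (tRNA-Gln, 54.1), each a signal. All 6 had the summit inside the tRNA gene or within 54 bp upstream of it. The 2 others lay farther away, each 271 bp past the gene, with signals of 85.7 at C18A11.t2 (tRNA-Arg, X) and 84.4 at Y95D11A.t1 (tRNA-Phe, I). The Y95D11A.t1 entry was also the only one of the 22 absent from the authors' conservative list. That list held 291 entries in all, while 391 entries of the ranking passed the IDR threshold, so passing entries elsewhere were absent too. The background of 0.312% counts all 391, and why entries were left out of the conservative list was not tested.

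Signal was highest over the tRNA gene itself and stood at the level of the whole ranking beyond 100 bp. Entries with the summit inside the gene had a median of 31.3 (n = 146), and those 1 to 100 bp away 27.4 (n = 236). Past 100 and up to 250 bp the median was 19.2 (n = 172), past 250 and up to 500 bp 19.3 (n = 324), and past 500 and up to 1000 bp, outside the set, 19.5 (n = 638). The upstream side had a median of 29.2 within 100 bp (n = 135) and the downstream side 25.6.

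**Figure D1:**
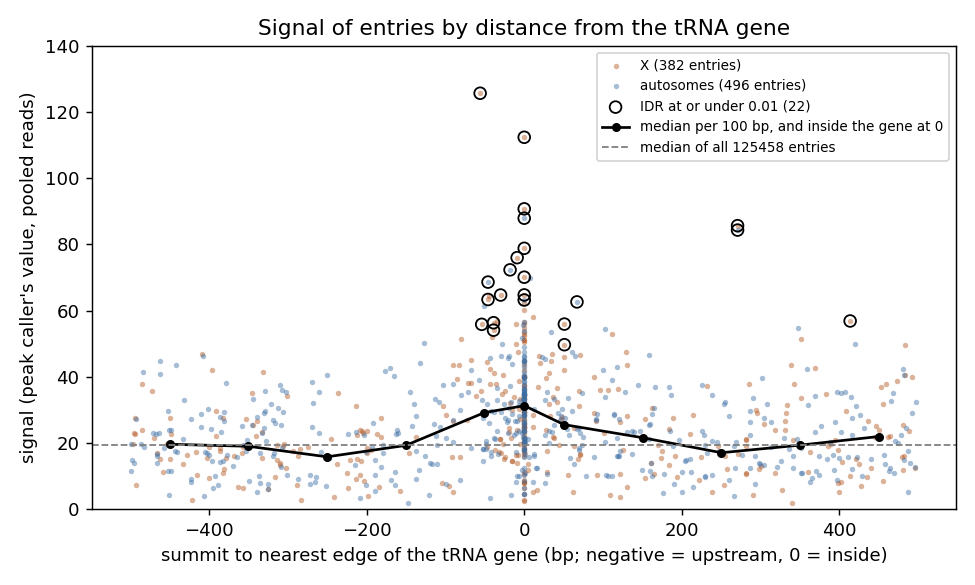
Signal of each of the 878 entries (y axis, the peak caller's value in pooled reads) against the distance of its summit from the nearest edge of the tRNA gene (x axis, bp, negative upstream), by chromosome, with medians per 100 bp. The medians stand at 29.2 just upstream, 31.3 inside and 25.6 just downstream, and most of the 22 circled entries with an IDR at or under 0.01 lie there.

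Of the 22 entries past the IDR threshold, 19 had the summit inside the tRNA gene or within 100 bp of it. They were 4.97% of the 382 entries there (3.21% to 7.64%), and 3 of the 496 entries farther away passed (0.605%, 0.206% to 1.76%), against 0.312% of all entries. Within 100 bp, 7 of the 146 entries inside the gene passed, 9 of the 135 upstream and 3 downstream (2.97%). Measured from the first base of the gene, the summits of the 19 had a median position of +5 bp, while all 382 had a median of +24.5 bp (quartiles -17 and +77.75). Near the edge of the window, 0 of the 71 entries in the last 50 bp inside it passed and 0 of the 66 in the first 50 bp outside it, with median signals of 21.5 and 19.3. GC content moved with distance: it averaged 44.2% in the 100 bp each side of summits within 100 bp of the gene and 38.1% around the others, and its part in the signal was not tested.

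X held most of the reproducible candidates at tRNA genes. On X, 16 of 382 entries passed an IDR of 0.01 (4.19%, 2.59% to 6.69%), where 0.414% of all X entries did. On the autosomes 6 of 496 passed (1.21%, 0.556% to 2.61%), where the background was 0.287%. The difference was 2.98 percentage points (95% Newcombe interval 0.855 to 5.57). Away from tRNA genes, by more than 500 bp, 0.354% of X entries and 0.282% of autosomal entries passed. At an IDR of 0.05, 40 X entries (10.5%) passed against 1.79% of all X entries, and 25 autosomal entries (5.04%) against 1.26%. The order was not the same within each replicate, where the IDR does not compare the 2 replicates. In the ranking made within replicate 1 alone, 1 of 233 X entries and 2 of 285 autosomal entries at tRNA genes passed. In that of replicate 2, 4 (1.70%) and 3 (0.990%) passed.

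The X and autosomal entries hardly differed in their middle values, and the X entries reached higher at the top. Median signal was 23.5 on X and 23.1 on the autosomes, while the upper quartile was 35.7 on X and 32.4 on the autosomes. Over all entries the medians were 20.1 on X and 19.2 on the autosomes. Within 100 bp of the gene, the X entries had a median of 29.9 (n = 185) and 14 passed (7.57%, 4.56% to 12.3%). The autosomal ones had a median of 27.6 (n = 197) and 5 passed (2.54%, 1.09% to 5.80%). Farther than 100 bp, 2 of 197 X entries and 1 of 299 autosomal entries passed, with medians of 18.7 and 19.7. Among the autosomes, chromosomes II (82 entries) and IV (103) had 0 entries past an IDR of 0.01, chromosome I had 1 of 91, III 2 of 91 and V 3 of 129. At an IDR of 0.05 chromosome III had 9 (9.89%), close to the share on X.

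**Figure D2:**
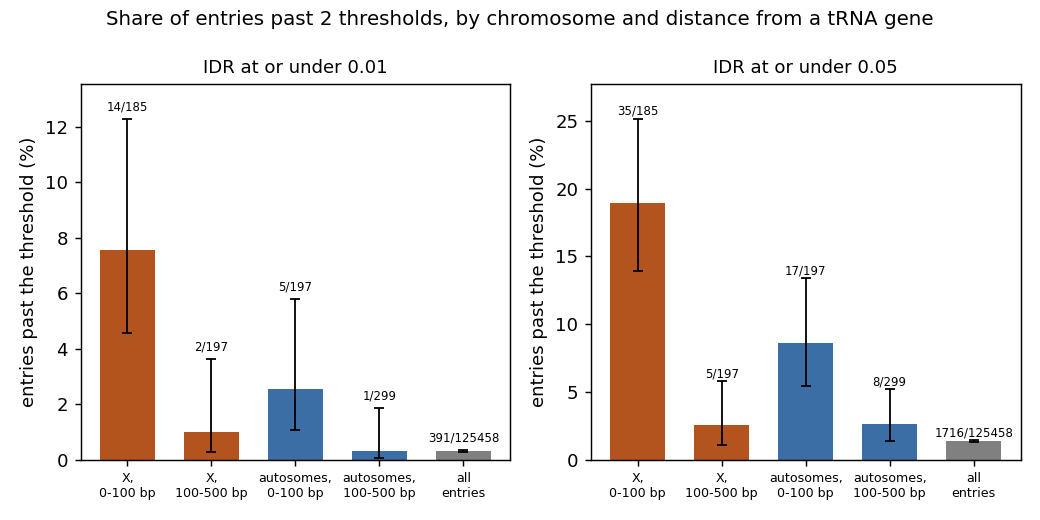
Percentage of entries past an IDR of 0.01 (left) and 0.05 (right) on X and on the autosomes, split by distance from the tRNA gene, beside all entries. Bars are shares with 95% Wilson intervals and counts. Entries on X within 100 bp of a tRNA gene stand highest in both panels, at 7.57% and 18.9%, and those on autosomes within 100 bp are next, at 2.54% and 8.63%.

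Candidates at clustered and at lone tRNA genes differed by 1.28 in median signal. A tRNA gene was called clustered when another lay within 1000 bp, and lone otherwise. Entries at clustered genes had a median signal of 24.1 (n = 260) and those at lone genes 22.8 (n = 618). The numbers past an IDR of 0.01 were 8 (3.08%, 1.57% to 5.95%) and 14 (2.27%, 1.35% to 3.77%), a difference of 0.812 points (-1.32 to 3.83). Within 100 bp of the gene the medians were 28.5 (n = 127, 6 passed) and 29.0 (n = 255, 13 passed). The compared lists were nearer each other at clustered genes, where 75.8% of entries differed by no more than 2-fold, against 66.7% at lone genes. On X, 7 of 139 entries at clustered genes and 9 of 243 at lone genes passed, and on the autosomes 1 of 121 and 5 of 375.

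Intronic and intergenic tRNA genes also had candidates with nearly the same median signal. Entries at tRNA genes inside an intron of a protein-coding gene had a median signal of 23.0 (n = 433), and those at intergenic tRNA genes 23.3 (n = 430). Past an IDR of 0.01 there were 10 (2.31%, 1.26% to 4.20%) and 12 (2.79%, 1.60% to 4.81%), a difference of -0.481 points (-2.76 to 1.75). At an IDR of 0.05 the numbers were 25 (5.77%) and 39 (9.07%). The 15 entries at tRNA genes that touch an exon had a median of 24.5 and 0 passed an IDR of 0.01. The direction of the host gene was counted over tRNA genes in introns together with those that touch an exon. Entries at tRNA genes read in the same direction as the host had a median of 22.2 (n = 254). Those at tRNA genes read against it had 23.5 (n = 192), with 5 past an IDR of 0.01 in each group. On X the intergenic entries within 100 bp had a median of 33.1 (n = 120) and the intronic ones 26.9 (n = 64). Of these, 26 intergenic (21.7%) and 8 intronic entries (12.5%) passed an IDR of 0.05. At an IDR of 0.01 the shares were nearly equal, with 9 of the 120 intergenic and 5 of the 64 intronic entries. On the autosomes the medians within 100 bp were 27.9 for intergenic entries (n = 76) and 27.3 for intronic ones (n = 116). Protein-coding promoters, from 500 bp upstream to 100 bp downstream of a start, held 119 of the entries. Of these, 2 passed an IDR of 0.01 (1.68%, 0.462% to 5.92%), and 20 of the 759 others did (2.64%, 1.71% to 4.03%). The promoter share over all entries was not counted.

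**Figure D3:**
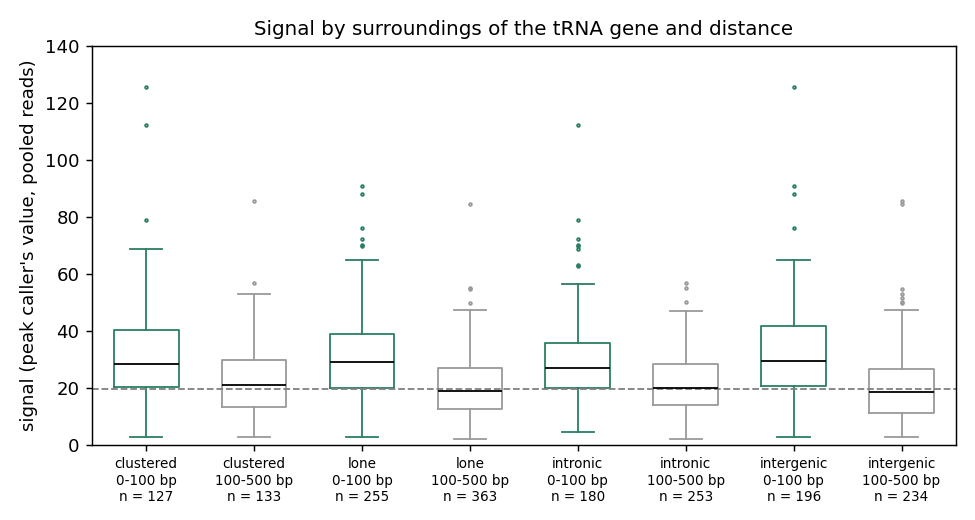
Signal of entries at clustered, lone, intronic and intergenic tRNA genes, each split into summits up to 100 bp and 100 to 500 bp from the gene. Boxes show the median and quartiles, whiskers reach 1.5 times the box height, points lie beyond, and the dashed line is the median over all entries (19.4). In each pair the nearer entries have the higher box, with medians between 27.1 and 29.3 against 18.6 to 20.9.

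The compared lists were only loosely correlated at tRNA genes. Across the 878 entries the Spearman rank correlation between the compared lists was 0.360, and across all 125458 it was 0.222. It was 0.388 at snoRNA genes, 0.311 at snRNA genes and 0.321 for entries between 500 and 1000 bp from a tRNA gene, so the value at tRNA genes was like that of these sets. These entries share the same libraries, so the correlation is a description. The lists were within 2-fold of each other for 69.4% of the entries at tRNA genes and 67.3% of all. All 22 entries past an IDR of 0.01 were within 2-fold, as were 92.3% of the 391 in the whole ranking. The IDR is computed from these lists, so this follows in part from the choice. Their medians were 35.2 in the first list and 34.7 in the second.

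The 3 strongest candidates that missed the threshold are given as a description, since a strong entry fails the IDR where the lists rank it differently. The first, 7 bp past F52C9.t1 (tRNA-Thr, III), had a signal of 69.8 and an IDR of 0.0192, with 20.4 in the first list and 44.3 in the second. R11.t1 (tRNA-Tyr, X) had 64.4 and an IDR of 0.0526, with 16.4 and 51.2. C33G3.t2 (tRNA-Lys, X) had 62.3 and an IDR of 0.0140, with 21.6 and 44.5. In all 3 the second list was more than 2-fold higher, and each was in the thresholded list of replicate 2. The reverse was seen at C53C7.t1 (tRNA-Ser, X), named after its values were seen, where the first list had 43.5 and the second 3.72 for a signal of 55.9.

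**Figure D4:**
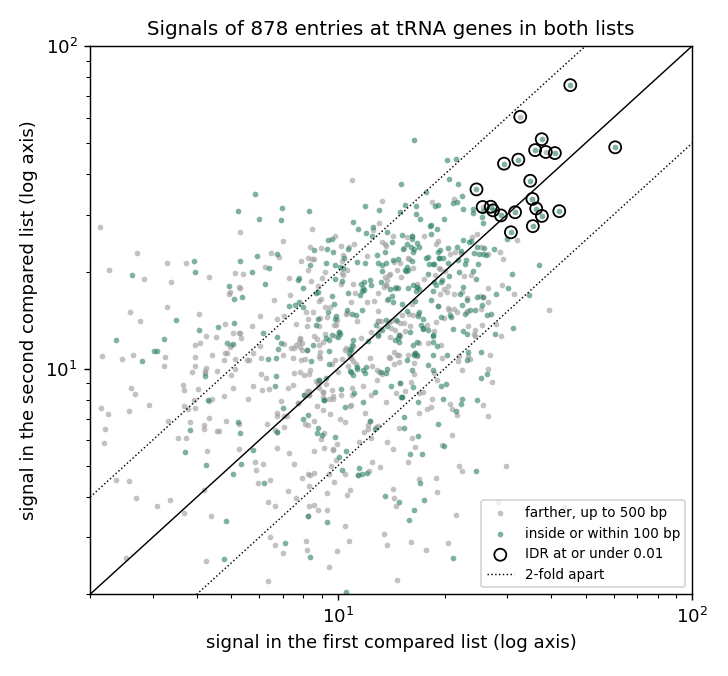
Signal of the 878 entries in the first compared list (x axis) and the second (y axis), both on log axes, with lines of equality and of 2-fold difference. The 22 circled entries with an IDR at or under 0.01 all lie between the 2-fold lines, and 69.4% of all points do.

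Fewer candidates passed when the lists of each replicate were used alone. The IDR of such a ranking cannot compare the 2 replicates, so its counts are not on the same measure as the 22. The IDR of the pooled ranking may differ in the same way. The ranking of replicate 1 had 518 entries at tRNA genes, of which 3 passed an IDR of 0.01 (0.579%), where 0.17% of all its entries did. The ranking of replicate 2 had 538, of which 7 passed (1.30%), against 0.291%. In the ranking of pooled reads 23 of 892 passed (2.58%), against 0.344%. The higher signal near the gene was present in each replicate: within 100 bp and beyond it the medians were 17.2 and 13.9 in replicate 1, and 19.6 and 14.8 in replicate 2. The thresholded list of replicate 1 held 47 entries and took up 2 of the 878 (4.26% of the list). That of replicate 2 held 77 and took up 6 (7.79%). Only 3 of the 22 entries past an IDR of 0.01 in the replicate ranking were in either list.

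Candidates were found at genes of every isotype, where 93.8% of all tRNA genes had an entry within 500 bp. Taking for each tRNA gene its strongest entry within 500 bp, the median was 30.6 over all genes with an entry, 33.3 on X and 29.4 on the autosomes. In all, 28 of the 612 tRNA genes (4.58%) lay within 500 bp of an entry past an IDR of 0.01 (22 on X), more than the 22 entries because neighbouring genes share an entry. They included 4 of the 27 tRNA-Gln genes, of which 3 share the entry at H08J11.t3, 3 of the 34 tRNA-Ala, 3 of the 41 tRNA-Glu, 3 of the 55 tRNA-Gly and 3 of the 29 tRNA-Ile genes. None of the 27 tRNA-Asp, 20 tRNA-His, 20 tRNA-Met, 34 tRNA-Thr and 31 tRNA-Val genes, nor the single tRNA-Sec gene, did. These counts are too small to single out an isotype against the 4.58% of all tRNA genes. The B box core was held by 21 of these 28 genes, close to the 72.1% of all tRNA genes.

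**Figure D5:**
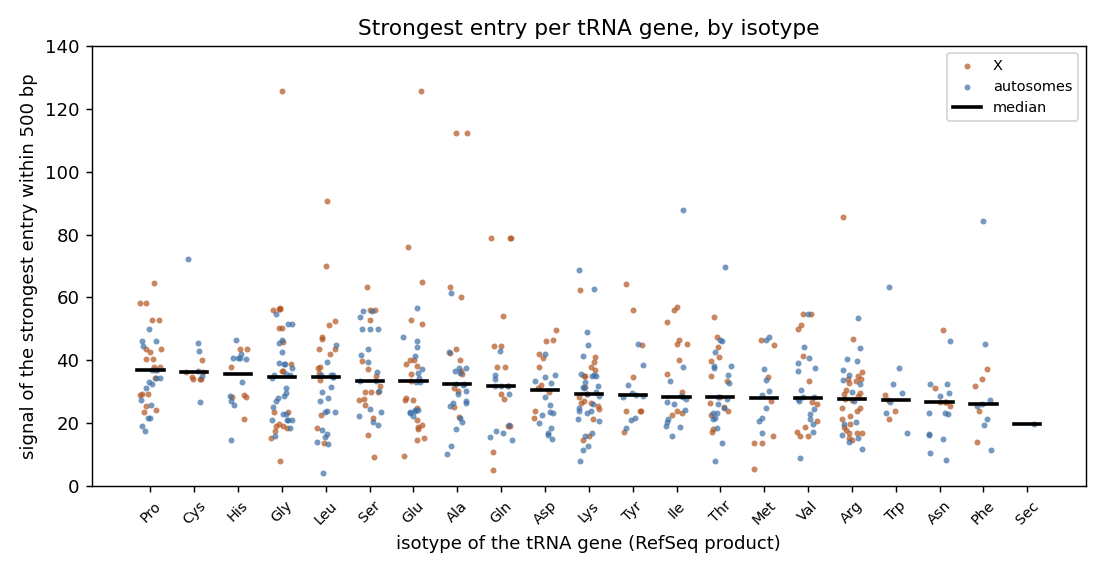
Signal of the strongest entry within 500 bp of each tRNA gene (y axis), by isotype in order of the median (x axis), coloured by X or autosome, for genes with an entry and a RefSeq isotype. The spreads of the isotypes overlap widely, and a shared entry appears at each gene it is near, as do the points at 125.7.

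Identical gene copies differed in signal. The 612 genes had 200 distinct sequences, and 469 genes shared theirs with at least 1 other. For the families of identical copies, each entry was credited only to its nearest tRNA gene. Over the 20 families of at least 10 copies, the highest of the strongest entries within 100 bp was 1.86 to 15.3 times the lowest. The median fold was 5.63. This fold tends to grow with the number of copies that had an entry, from 5 to 17, and rests on each family's lowest entry. It does not show that families differ. The narrowest range was that of a tRNA-Cys family, from 24.6 to 45.7 over the 9 copies with an entry. All 382 entries within 100 bp ran from 2.61 to 125.7, with quartiles of 20.1 and 39.5. For the tRNA-Glu gene with 20 identical copies, the strongest entry within 100 bp ran from 17.3 at Y53C10A.t3 to 125.7 at M02F4.t2, with a median of 30.7 over the 14 copies that had one. The entry at M02F4.t2 is also 61 bp from the tRNA-Gly gene M02F4.t1, so it is not that copy's alone, although credited to M02F4.t2 only. For the tRNA-Gln gene shown above it ran from 5.15, at an IDR of 0.683 with 4.23 and 9.49 in the compared lists, to 78.8. The median was 28.1 over 9 copies. Among the 12 of 14 copies of a tRNA-Lys gene with such an entry it ran from 13.7 at ZK994.t1 to 68.6 at K04C2.t3, and among 5 of 10 of tRNA-Trp from 21.3 at sup-7 to 63.2 at sup-5. Entries at genes whose sequence no other annotated tRNA gene shares had a median of 23.1, and 7 of 214 passed (3.27%). Those at genes with 10 or more copies had 23.0, and 12 of 443 passed (2.71%). How reads that match several copies were placed is not given in the deposited notes, and its part in these values was not tested.

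The LAG-1 site was not much more frequent at these candidates than elsewhere. The word RTGGGAA, searched on both strands in the 100 bp each side of the summit, was present at 65 of the 878 entries (7.40%, 5.85% to 9.33%), against 6.44% of the 124580 other entries. In 14 of the 65 a tRNA gene itself held the word, as 19 tRNA genes do. Of the 22 entries past the IDR threshold 2 had it, at F12D9.t2, inside the tRNA gene, and at B0344.t3, outside it. That is 9.09%, where 10.7% of the 391 entries past the threshold in the whole ranking had the word. The B0344.t3 site, with its word in capitals, is at chrX:1589171-1589199 (minus strand).
B0344.t3 site: gagtccgaactGTGGGAAggggggtagtg
A match of these letters does not show that the factor binds there. Of the entries at tRNA genes, 7.86% were more than 50% repeat-masked, against 19.1% of all entries.

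Other short genes for non-coding RNA had candidates of a similar kind. Within 500 bp of snoRNA genes, whose RNAs guide rRNA modification, 19 of 555 entries passed an IDR of 0.01 (3.42%, 2.20% to 5.28%) and the median signal was 22.5. Around snRNA genes, which supply the spliceosome, 7 of 185 passed (3.78%, 1.84% to 7.60%), with a median of 21.7. Within 100 bp the shares were 7.21% for snoRNA genes (15 of 208) and 6.58% for snRNA genes (5 of 76), each interval overlapping that of tRNA genes. Entries near neither a snoRNA nor a snRNA gene made up 870 of the 878 and held all 22 that passed. The strongest entry between 500 and 1000 bp from a tRNA gene had a signal of 192.2, above any in the set. It lay 940 bp from ZK994.t2 and 3 bp from a snoRNA gene.

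Genes whose products make or charge tRNAs were counted for comparison, with lists too short to be told from the background. A gene was credited with entries from 2000 bp upstream to its 3′ end, and 1.56% of protein-coding genes had a summit past an IDR of 0.01, with a median strongest signal of 32.7. Among 11 genes of the RNA polymerase III machinery 0 had one. The strongest candidate of these, at rpc-2, a large subunit of the polymerase, reached a signal of 46.0 (IDR 0.0625), and the list's median was 28.6. Among 22 aminoacyl-tRNA synthetase genes 0 had one. The strongest, at fars-1, a subunit of the phenylalanine enzyme, reached 53.8 (IDR 0.0244). The list's median was 36.8, and yars-1 had no entry.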

How the data were processed

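ChIP-seq of 2 replicates in 1 group was analysed as peak lists on ce11. The authors made them from the precipitated reads and a control, per the notes deposited. The sources used here name no aligner, caller or version and no read totals, so depth is unknown. The deposited signal is the caller's strength per peak, in a unit no header names, compared only within a list. In the rankings, the −log10 column deposited by the authors gives the IDR, and 0.01 was the threshold. From these files, summits were placed against the tRNA genes of Ensembl release 115, with isotypes from RefSeq and sequence from NCBI WBcel235. Intronic tRNA genes lie within a protein-coding span and touch none of its exons. Intervals are Wilson or Newcombe at 95%. Named tRNA genes are those at merged regions past the threshold, the 3 strongest that missed it and the strongest of each class, with the strongest gene of each of 2 gene lists. The lowest copies of a family (C05E7.t1, Y53C10A.t3, ZK994.t1, sup-7), M02F4.t1, C53C7.t1, ZK994.t2 and yars-1 are outside the rule and were chosen after their values were seen. Members, lists and classes were chosen with earlier results of these data known. Alternatives covered window, threshold, list, merging, repeats and each replicate. Scripts were tested on simulated data and run in Python 3.11.15 with SciPy 1.17.1 for correlations, pandas 2.3.3 and NumPy 2.4.6 for tables, and matplotlib 3.10.9 for plots.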

Additional observations from a re-analysis of the deposited data

How the results depend on the processing

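Of 77 alternatives over 13 results, 49 left it within its spread, interval or set band, 27 moved it and 1 turned its direction. For median signals the spread was the standard deviation of the result over the 2 compared lists. Resting on 2 values, it was as narrow as -0.352 to -0.263 for intronic minus intergenic, so a moved label there says little. The band, used for counts and the correlation, ran from the value divided by 1.5 to 1.5 times it. It is a chosen limit and not a measure of error. The excess of X over autosomes past an IDR of 0.01 (2.98 points) fell to between -0.273 and 0.712 in the rankings of single replicates, negative without replicate 2, was 1.63 with a window of 1000 bp, 1.81 at an IDR of 0.005, 2.30 in the pooled ranking and 3.50 without repeat-masked entries, and was 5.03 for summits within 100 bp, an alternative chosen after seeing the data. Windows of 250 and 1000 bp gave 554 and 1516 entries, with median signals of 25.4 and 21.7, and at 250 bp X exceeded autosomes by 2.40 in median signal (reported 0.339). Entries past the threshold numbered 65 (7.40%) at an IDR of 0.05 and 14 (1.59%) at 0.005, single replicates gave 3 to 7 (0.579% to 1.30%), and leaving out repeats gave 2.60%. Single replicates have their own signal scale and fewer entries, and their IDR does not compare the 2 replicates. There the median signal was 15.7 to 17.2, X exceeded autosomes by 0.455 to 1.46, clustered exceeded lone by 0.00945 to 0.0798 and near exceeded far by 3.26 to 4.84. Near exceeded far by 8.94 in the pooled ranking and by 6.16 with near meaning 250 bp (reported 9.45). Intronic minus intergenic median signal (reported -0.307) was -0.0588 in the pooled ranking, -0.991 after merging, -1.02 without repeats and -2.34 to -0.320 in single replicates. The share differences were uncertain throughout: clustered minus lone (0.812 points) was 1.67 in the pooled ranking and 0.00336 to 0.574 in single replicates, and intronic minus intergenic (-0.481) was -1.47 pooled and -1.12 to -0.397 in single replicates. Unknown depth leaves the error of a single signal unmeasured, and counts as small as 6 autosomal entries limit every share. The causes of these shifts were not tested.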
